A study of Mus musculus with 4 samples.

Results

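The zinc-finger repressors Gfi1 and Gfi1b and the corepressors Kdm1a, Rcor1, Hdac1 and Hdac2 were examined in lymphoid-primed multipotent progenitors (LMPPs), early blood progenitors of mouse bone marrow. These 6 genes of the 18193 named on the array were taken by symbol, because Gfi1 is a proposed target of the transcription factor Lyl1 and the other proteins work with it. All 11 of their probe sets, of 45037 on the array, were used, and all 11 had a mean above the filter on dim signal, which was the median of all probe-set means (log2 5.69). Gfi1, Gfi1b and Hdac1 had 1 probe set each, Kdm1a had 2, and Rcor1 and Hdac2 had 3 each.

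Lyl1-null and wild-type LMPPs were compared, with 2 libraries per genotype on 1 array each. The LMPPs came from mice labelled Lyl1-null or from wild-type (WT) mice, and libraries labelled Lyl1-null are called null-labelled libraries 1 and 2 here, after their replicate numbers. The mice were C57Bl/6 and 6 to 8 weeks old, and the LMPPs were sorted from bone marrow as lineage-negative cells that carry Sca-1, c-Kit and much Flt3, without culture. The allele is described in the labels only by a citation, and they do not name the stretch of the gene that it removes. Nothing in them tells whether replicates were separate mice. The p-values therefore cover only the spread between these libraries, which may be technical. Values are log2 expression values that the submitters made with RMA, and with 2 arrays per group their number limits the precision.

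GFI proteins bind DNA through C-terminal zinc fingers and silence genes through a short N-terminal SNAG domain. The SNAG domain holds the histone demethylase Kdm1a (LSD1), and the scaffold Rcor1 (CoREST) joins Kdm1a to the histone deacetylases Hdac1 and Hdac2. Gfi1 is needed for stem cell fitness, neutrophil maturation and lymphoid development, whereas Gfi1b is best known in erythroid and megakaryocytic cells. In blood cells both factors are known to repress their own genes and each other's.

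The sequences before the transcription starts of both factors are shown because Lyl1 pairs with E proteins that recognise E-boxes, and GFI proteins recognise a core of AATC. Each window holds the 250 bases before a start on the minus strand of GRCm38.p6, from RefSeq, written 5′ to 3′ in the direction of the gene, and capitals mark E-boxes (CANNTG, which reads alike on both strands). The window of the outer Gfi1 start is chr5:107725806-107726055, that of the inner Gfi1 start chr5:107724344-107724593 and that of Gfi1b chr2:28621983-28622232.
Gfi1 outer start: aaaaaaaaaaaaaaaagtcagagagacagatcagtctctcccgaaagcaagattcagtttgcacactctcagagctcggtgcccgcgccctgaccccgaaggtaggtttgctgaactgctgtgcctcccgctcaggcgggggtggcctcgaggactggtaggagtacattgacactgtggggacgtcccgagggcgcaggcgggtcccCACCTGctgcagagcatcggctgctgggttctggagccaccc
Gfi1 inner start: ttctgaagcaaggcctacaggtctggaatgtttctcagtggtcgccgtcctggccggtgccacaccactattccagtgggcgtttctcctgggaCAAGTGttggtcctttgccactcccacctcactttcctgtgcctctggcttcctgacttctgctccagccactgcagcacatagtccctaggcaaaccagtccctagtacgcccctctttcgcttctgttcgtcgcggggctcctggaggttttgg
Gfi1b start: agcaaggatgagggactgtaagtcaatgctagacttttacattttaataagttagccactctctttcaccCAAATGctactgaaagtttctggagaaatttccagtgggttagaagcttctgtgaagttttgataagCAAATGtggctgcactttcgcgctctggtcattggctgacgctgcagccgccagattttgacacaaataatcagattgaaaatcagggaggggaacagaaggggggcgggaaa

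Of the members, 5 had such a window. The outer Gfi1 window held the E-box CACCTG at base 209 counted from its 5′ end, and the inner one held CAAGTG at base 95. The Gfi1b window held CAAATG at bases 71 and 138. No E-box was found in the windows of Kdm1a, Rcor1 and Hdac2. E-boxes are common letters, present in 66.2% of 32851 windows of the same length, and 31.8% held at least 2. The AATC core, searched on both strands, occurred 4 times in the Gfi1b window, 1 time in the outer and 0 times in the inner Gfi1 window. Of all windows, 69.0% held at least 1 such core and 7.04% at least 4. No E-box or AATC match in the GFI windows overlapped another, or a match to GATA or GGAA. These matches are letters in the sequence and were not tested for binding.

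Lyl1 itself differed between the null-labelled libraries. Lyl1 read 5.14 in null-labelled library 1, below the filter, and 10.32 in library 2, against 12.34 and 12.29 in WT. Those 2 readings are 0.692% and 25.1% of the WT mean, so the second library went against its label. In limma Lyl1 fell relative to WT with library 1 alone (difference −7.17, adjusted p = 2.88e-05) and with library 2 alone (−1.99, adjusted p = 0.00471), while with both the difference of −4.58 did not pass (SE 1.57, adjusted p = 0.644). When every probe set of the array was fitted without a filter, Lyl1 passed with library 1 alone (adjusted p = 0.0306) and not with library 2 alone (adjusted p = 0.0944). Whether the Lyl1 probes lie in the deleted stretch was not tested. Null-labelled library 2 also had Xist, made in female cells, at 14.26 and the Y-chromosome gene Eif2s3y at 8.44. The other 3 libraries had Xist between 5.81 and 6.30 and Eif2s3y between 10.07 and 10.15. Library 2 thus differed from both WT libraries in sex-linked genes, yet its Eif2s3y reading was still above the filter of 5.69. Whether it held RNA of both sexes was not tested, nor was the part of this in its Lyl1 reading. The part of sex in its other differences was not tested either. At least 2-fold differences separated library 2 from the other libraries in 518 to 859 genes, against 42 to 128 genes among those 3. For this reason every member is given for each library labelled Lyl1-null on its own as well as for both. The LMPP gate was checked on Flt3, Kit, Cd34, Cd48 and Ptprc, which were above the filter. All 5 read lower in the null-labelled libraries, with a summed linear signal of 10777 to 14729, against 16968 to 18341 in WT. As RNA was taken from bulk cells, fewer cells of a type and less RNA per cell cannot be told apart.

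Gfi1 read lower in both null-labelled libraries, at nearly the same level in each. The probe set 1417679_at stood at 9.36 and 9.35 in these libraries and at 10.24 and 9.84 in WT. The groups did not overlap, and the null-labelled libraries lay closer together than the WT pair, which was 0.40 apart. The means were 9.36 ± 0.0078 in the null-labelled libraries and 10.04 ± 0.28 in WT (SD, n = 2 each), so Gfi1 signal averaged 62.4% of WT. The difference, in log2 units, was −0.68 (SE 0.20, 95% interval −1.17 to −0.19) and did not pass after correction over all genes (limma, adjusted p = 0.644). It was −0.68 in null-labelled library 1 and −0.69 in library 2, and a relation to their Lyl1 readings was not tested. Of 11196 genes tested, 3.25% had a difference as low as that of Gfi1 or lower. For a single value, an exact two-sided permutation test of 2 against 2 libraries cannot go below p = 0.333, which Gfi1 reached.

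Gfi1b stood above WT in both null-labelled libraries, by more in library 1, and a relation to the Lyl1 level was not tested. The probe set 1420399_at stood at 8.45 in null-labelled library 1 and 7.90 in library 2, and at 7.64 and 7.75 in WT. The groups did not overlap, but null-labelled library 2 exceeded the higher WT library by little more than the WT libraries differed from each other, 0.11. The means were 8.17 ± 0.39 in the null-labelled libraries and 7.70 ± 0.080 in WT (SD, n = 2 each), 139% of WT. The log2 difference of 0.48 (SE 0.23, 95% interval −0.090 to 1.05) did not pass (adjusted p = 0.644). It was 0.75 with null-labelled library 1 alone (SE 0.17, adjusted p = 0.322) and 0.21 with library 2 alone (SE 0.17, adjusted p = 0.413). Of the genes tested, 3.36% had a difference as high as that of Gfi1b or higher.

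**Figure D1:**
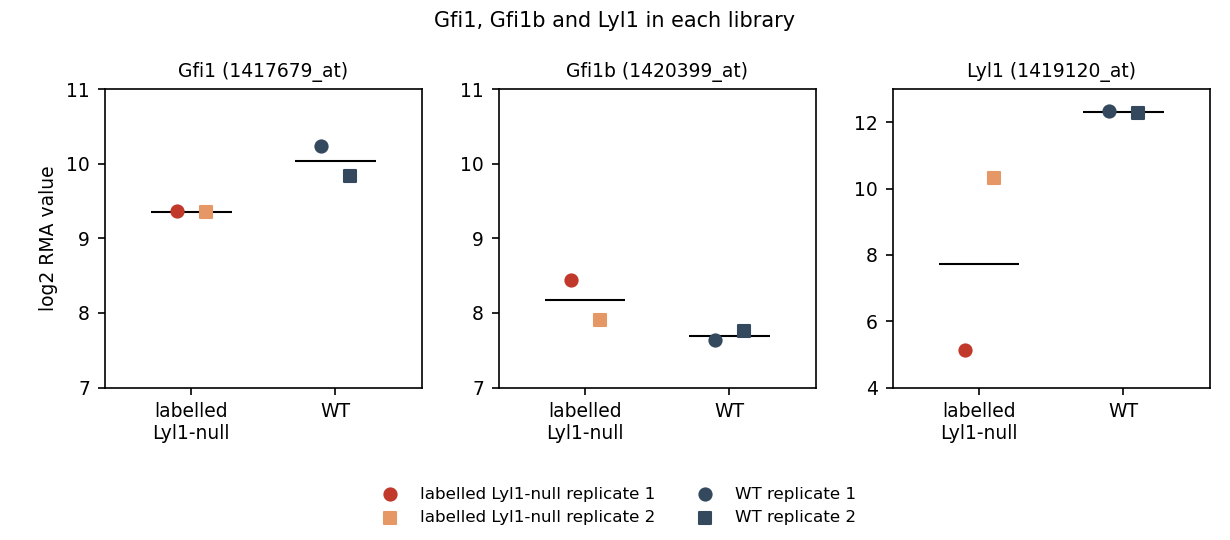
Log2 RMA values (vertical axes) of Gfi1, Gfi1b and Lyl1 in the 2 null-labelled libraries and the 2 WT libraries; points are libraries and horizontal lines are group means, and the Lyl1 axis covers a wider range than the other axes. The null-labelled libraries lie at 9.36 and 9.35 for Gfi1 and at 5.14 and 10.32 for Lyl1, and Gfi1b lies above WT in both.

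Gfi1 and Gfi1b lay apart in opposite directions, which was also read within each library. The Gfi1 value minus the Gfi1b value, a log2 gap within a library that a shift of the whole array cannot move, was 0.92 and 1.45 in the null-labelled libraries and 2.60 and 2.08 in WT. The smallest WT gap exceeded the largest gap in the other group, and the mean gap was 1.18 ± 0.38 in the null-labelled libraries and 2.34 ± 0.36 in WT (SD, n = 2 each). The gap differed by −1.16 (exact two-sided permutation test, p = 0.333, the smallest these numbers allow). The gap is no comparison of the 2 genes' levels, since their probes differ, and it was computed after both genes' values were seen.

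In limma 0 of the blood lineage markers passed over all genes, and their part in the Gfi1 and Gfi1b readings was not tested. Of 12 granulocyte and monocyte markers on the array, 6 read higher and 6 lower in the null-labelled libraries. The granule genes Ngp (1.997) and Camp (1.84) differed most, both higher, while Mpo (−1.01) and Ctsg (−0.53) differed most among the 6 lower. The summed linear signal of the 12 was 12737 to 16557 in the null-labelled libraries and 16789 to 17587 in WT. Prtn3 weighed most in this sum, at 12.78 and 12.22 in the null-labelled libraries and 12.63 and 12.59 in WT. S100a9 lay below the filter. Of 10 megakaryocyte and erythroid markers, where Gfi1b acts, 3 read higher and 7 lower, with summed signals of 5315 to 5612 in the null-labelled libraries and 8144 to 10058 in WT. Linear sums weigh the brightest marker most, here Car2, at 11.97 and 12.07 in the null-labelled libraries and 13.01 and 12.74 in WT. Car1 (−1.14) and Pf4 (−0.99) had the largest differences there, in the direction opposite to Gfi1b. Hba-a1 and Gp1bb lay below the filter. Of 7 B-lineage markers 6 read higher, with summed signals of 2208 to 2588 in the null-labelled libraries and 1902 to 1968 in WT, with Vpreb1 at 0.56 and Igll1 at −0.50, and Pax5 and Ms4a1 below the filter.

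Of 8 T and NK markers 6 read higher, with summed signals of 3278 to 3812 in the null-labelled libraries and 2955 to 3074 in WT. Nkg7 weighed most in this sum, at 11.66 and 11.42 in the null-labelled libraries and 11.24 and 11.18 in WT. Klrd1 (−0.76) and Ccl5 (−0.68) differed most, and Cd3g and Bcl11b lay below the filter. Of 7 mast cell, basophil and eosinophil markers 5 read lower, led by Gata2 (−0.82) and Mcpt8 (−0.80), and Fcer1a and Ms4a2 were below the filter. Their summed signals were 1326 to 1522 in the null-labelled libraries and 1994 to 2140 in WT. Gata2, which is also a progenitor gene, was the brightest and weighed most in this sum. Long-term stem cell markers (5 of 8 higher; Hlf −0.62, Procr 0.46; Slamf1, Fgd5, Vwf and Tek below the filter) summed to 4139 to 5011 in the null-labelled libraries and 4947 to 5835 in WT. Dendritic cell and macrophage markers (5 of 8 higher; Itgax 0.57, C1qa −0.30; Cd209a, Batf3, Adgre1 and C1qb below the filter) summed to 522 to 549 in the null-labelled libraries and 503 to 524 in WT.

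Kdm1a, the demethylase of the complex, read slightly lower in both null-labelled libraries. Its brighter probe set (1426762_s_at) stood at 10.24 and 9.95 in these libraries and at 10.33 and 10.46 in WT. The second probe set (1426761_at) stood at 9.25 and 9.04 in the null-labelled libraries and at 9.38 and 9.38 in WT. In neither probe set did the groups overlap, and in both null-labelled library 2 was the lowest. The brighter probe set averaged 10.09 ± 0.21 in the null-labelled libraries and 10.39 ± 0.093 in WT (SD, n = 2 each), or 81.2% of WT. The log2 difference was −0.30 (SE 0.18, 95% interval −0.75 to 0.15, adjusted p = 0.644), and it was −0.15 in null-labelled library 1 and −0.45 in library 2. Both probe sets were designed on the same transcript accession, so they are not independent.

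Rcor1, the CoREST scaffold, read lower in all 3 of its probe sets. The brightest (1434336_s_at) stood at 8.55 and 7.97 in the null-labelled libraries and at 8.72 and 8.87 in WT. The probe set 1454932_at stood at 7.43 and 7.32 in the null-labelled libraries and at 7.81 and 7.70 in WT. The probe set 1437545_at stood at 7.07 and 6.92 in the null-labelled libraries and at 7.43 and 7.40 in WT. The groups were separate in every one, with null-labelled library 2 lowest each time. For the brightest, the log2 difference was −0.54 (SE 0.24, 95% interval −1.13 to 0.056), 69.0% of WT, and did not pass (adjusted p = 0.644). It was −0.25 in null-labelled library 1, where it did not pass, and −0.83 in library 2, where Rcor1 fell relative to WT (limma, adjusted p = 0.0293). That call was lost when every probe set of the array was fitted without a filter (adjusted p = 0.0955, and 0.146 and 0.120 for the other probe sets). The other probe sets gave −0.32 and −0.35 in null-labelled library 1 and −0.43 and −0.49 in null-labelled library 2, so the size in null-labelled library 2 rested on the probe set read.

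**Figure D2:**
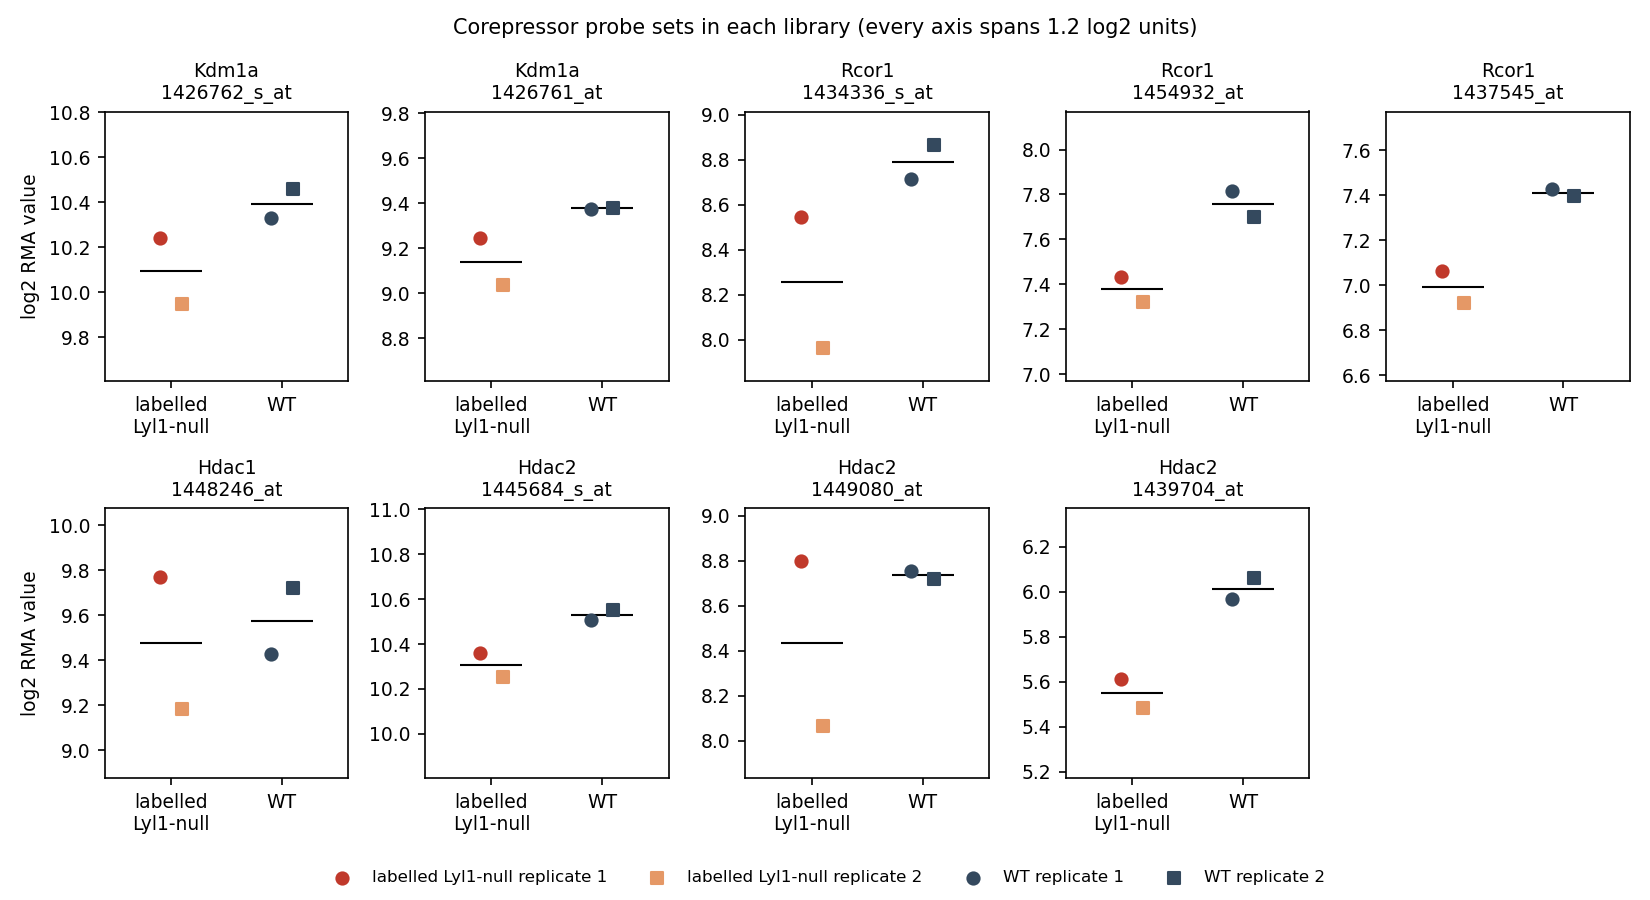
Log2 RMA values (vertical axes, each spanning 1.2 units) of the 9 probe sets of Kdm1a, Rcor1, Hdac1 and Hdac2 in the null-labelled libraries and in WT; points are libraries and horizontal lines are group means. All 3 Rcor1 and both Kdm1a probe sets lie lower in the null-labelled libraries, while Hdac1 (1448246_at) and Hdac2 (1449080_at) overlap WT.

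Hdac1 did not differ beyond the spread between libraries. It stood at 9.77 and 9.18 in the null-labelled libraries, the highest and the lowest of all 4, against 9.43 and 9.72 in WT. The means were 9.48 ± 0.42 in the null-labelled libraries and 9.57 ± 0.21 in WT (SD, n = 2 each). The log2 difference was −0.097 (95% interval −0.72 to 0.53, adjusted p = 0.893), and it was 0.20 in null-labelled library 1 and −0.39 in library 2. With quantile normalization the difference was 0.025, of the opposite sign.

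Hdac2, the close relative of Hdac1 in the same complexes, gave a different picture in each probe set. The brightest (1445684_s_at) stood at 10.36 and 10.26 in the null-labelled libraries and at 10.51 and 10.55 in WT, without overlap. The log2 difference there was −0.22 (SE 0.16, 95% interval −0.62 to 0.17, adjusted p = 0.656). The probe set 1449080_at stood at 8.80 and 8.07 in the null-labelled libraries and at 8.76 and 8.72 in WT, so that null-labelled library 1 was above both WT libraries and null-labelled library 2 below them. The dimmest (1439704_at) stood at 5.61 and 5.48 in the null-labelled libraries, under the filter of 5.69, and at 5.97 and 6.06 in WT. Its log2 difference of −0.47 was the largest of the 3 for Hdac2.

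Over the 6 genes, 0 passed in limma with all 4 libraries, against 0.00893% of all genes tested. At an unadjusted p under 0.05 there was 1, Gfi1, where 6.84% of all genes lay. The groups did not overlap for 4 members with lower values, against 24.0% of all genes, and for 1 with higher values, Gfi1b, against 18.7%. The median difference of the 6 was −0.26, beside −0.047 over all genes tested, and 5 were negative, where 56.9% of all genes were. With null-labelled library 1 alone, 0 members passed, against 0.196% of genes, and 2 had an unadjusted p under 0.05, Gfi1 and Gfi1b, against 6.74%. With null-labelled library 2 alone, 1 passed, Rcor1, against 14.8% of genes (10.8% lower and 3.94% higher). Both comparisons share the WT libraries. When every probe set of the array was fitted, 0 of the 11 passed, against 0.00444% of all probe sets. At an unadjusted p under 0.05 there were 3, of Gfi1, Rcor1 and Hdac2, against 7.88%. In that unfiltered fit 1 of the 45037 probe sets passed with null-labelled library 2 alone, so the calls given below for that library hold for the filtered genes.

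**Figure D3:**
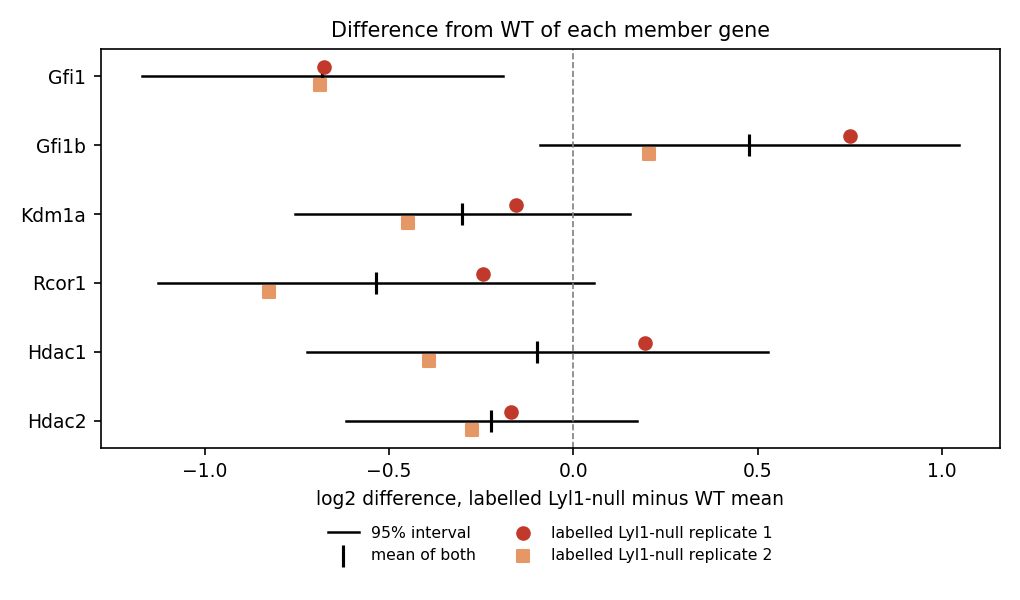
Log2 difference from the WT mean (horizontal axis) for the 6 member genes, with each library labelled Lyl1-null as a point, their mean as a tick and the limma 95% interval as a line. Gfi1 lies near −0.68 in both libraries, Gfi1b to the right of 0 in both, and Hdac1 on both sides of 0.

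Over the tested genes, the median difference of null-labelled library 2 from the WT mean was −0.078 as deposited, 0.055 after quantile normalization and −0.20 after median centring, whereas that of null-labelled library 1 was −0.0086 as deposited. With quantile normalization, Gfi1 differed by −0.63 in null-labelled library 1 and −0.52 in library 2, Gfi1b by 0.82 and 0.43, and Rcor1 by −0.18 and −0.60. With median centring Gfi1b differed by 0.72 in null-labelled library 1 and by 0.088 in library 2, the second of which is less than the WT libraries differed from each other. Every probe set of these genes and of Kdm1a kept its sign in both libraries under either scaling. The deposited values of all probe sets were spread less in null-labelled library 2 (SD 2.34) than in library 1 (2.44) and WT (2.48 and 2.47). Its 75th percentile was 7.59, against 7.74 in library 1 and 7.81 in each WT library, while its median of 5.76 was the highest. The part of this spread in the lower readings of library 2 was not tested.

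The wider LSD1-CoREST complex gave no call with all 4 libraries. Of 16 listed genes 14 were tested, 0 passed over all genes and 1 had an unadjusted p under 0.05, against 6.84% of all genes. The differences were negative for 11 and positive for 3, where 56.9% of all genes were negative, with a median of −0.23, or −0.069 in null-labelled library 1 and −0.40 in null-labelled library 2. Without the 4 members, 7 were negative and 3 positive, with a median of −0.21. Quantile normalization left 9 of the 14 negative (median −0.17) and median centring 13 (median −0.30). Gse1, a protein found with the complex, stood at 7.19 and 6.50 in the null-labelled libraries and at 7.62 and 7.83 in WT (difference −0.88, SE 0.26, adjusted p = 0.644), and its other probe set above the filter gave −0.60. The zinc-finger subunit Zmym2 had a difference of −0.36 (SE 0.17, adjusted p = 0.644), with −0.097 in a second probe set. Gse1, Rcor1, the HMG-box subunit Hmg20b and the corepressor Ctbp2 are compared by library here, picked out after their values were seen. They differed by −1.22, −0.83, −1.17 and −0.93 in null-labelled library 2, and by −0.54, −0.25, 0.18 and 0.016 in library 1. Hmg20b and Ctbp2 overlapped WT, and Hmg20b read 5.51 in library 2, below the filter. The paralogue Rcor2 read 7.34 and 7.24 in the null-labelled libraries and 6.95 and 7.09 in WT, opposite to Rcor1, without passing (difference 0.27, SE 0.16, adjusted p = 0.644), and was also picked out after its values were seen.

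Of 11 listed partners of GFI proteins, Gfi1 and Gfi1b included, 8 were tested, 0 passed and 1 had an unadjusted p under 0.05, against 6.84% of all genes. The differences were negative for 6, or 7 after median centring, with a median of −0.086 in null-labelled library 1 and −0.60 in null-labelled library 2. Zbtb17 (Miz1), through which Gfi1 reaches promoters that lack a GFI site, stood at 8.51 and 7.86 in the null-labelled libraries and at 8.61 and 8.60 in WT (difference −0.42, SE 0.25, adjusted p = 0.644). A second Zbtb17 probe set differed by 0.44, the opposite way. Zbtb17 differed by −0.090 in null-labelled library 1 and by −0.74 in library 2, where its second probe set differed by 0.78. The arginine methyltransferase Prmt1, named after its values were seen, differed by 0.50 in library 1 and −2.21 in library 2. Prmt1 stood at 12.44 and 9.73 in the null-labelled libraries and at 11.75 and 12.13 in WT, so that library 1 was above both WT libraries and library 2 below them. Pias3, an inhibitor of Stat3 that binds Gfi1, differed by −0.42 (SE 0.19, adjusted p = 0.644), with 0.038 in its second probe set. Among 10 other repressors with a SNAG domain, 9 lay below the filter and 1 was tested, Snai3 (difference 0.25, SE 0.22, adjusted p = 0.691), so that 0 had an unadjusted p under 0.05.

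Histone deacetylases outside the CoREST complex gave no call with all libraries. Of 33 listed subunits of other class I complexes (NuRD, SIN3, NCoR and MIER) 30 were tested and 0 passed, while 4 had an unadjusted p under 0.05, against 6.84% of all genes. The differences were negative for 19 and positive for 11 (16 and 14 after quantile normalization, 24 and 6 after median centring), with a median of −0.14. Arid4b, a SIN3 subunit, had a difference of −0.70 (SE 0.22, adjusted p = 0.644) and −0.21 in its other probe set above the filter, and Chd3, a NuRD remodeller, one of −0.51 (SE 0.17, adjusted p = 0.644). The list median was −0.061 in null-labelled library 1 and −0.24 in library 2, beside −0.0086 and −0.078 over all genes tested. Of the 7 class II and IV deacetylases 0 passed, 2 had an unadjusted p under 0.05 (6.84% of all genes) and 5 were negative (56.9% of all genes), with a median of −0.35. The median of these 7 was −0.20 in null-labelled library 1 and −0.51 in library 2. The smallest unadjusted p belonged to Hdac11 at −0.75 (SE 0.22, adjusted p = 0.644; second probe set −0.15) and Hdac9 at −0.58 (SE 0.23, adjusted p = 0.644).

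**Figure D4:**
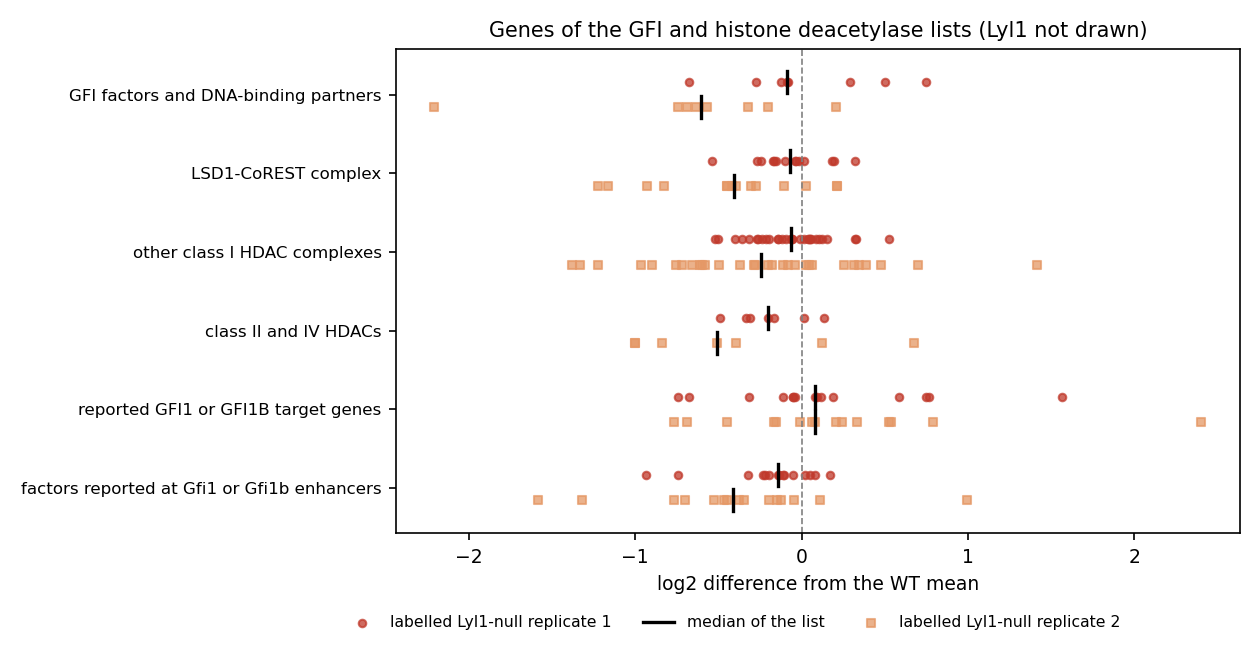
Log2 difference from the WT mean (horizontal axis) of each tested gene in 6 lists, separately for null-labelled library 1 (circles) and null-labelled library 2 (squares), with the list medians as bars; Lyl1 counts in the median of its list but is not drawn. The medians of the LSD1-CoREST list are −0.069 and −0.40, while those of the reported GFI targets are 0.080 and 0.082.

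Genes reported as targets of GFI1 or GFI1B, which these factors repress in several blood cell types, went both ways. Of 21 listed, Gfi1 and Gfi1b included, 15 were tested and 0 passed over all genes. Among them 4 had an unadjusted p under 0.05, Gfi1 being 1 of these, against 6.84% of all genes. The differences were positive for 8 and negative for 7 (10 and 5 after quantile normalization). Without Gfi1 and Gfi1b, 7 were positive and 6 negative, with a median of 0.14. The median of all 15 was also 0.14, and after median centring that of null-labelled library 2 was −0.036. Cdkn1a, the cell cycle inhibitor p21, stood at 10.96 and 11.80 in the null-labelled libraries and at 9.51 and 9.28 in WT (difference 1.98, SE 0.30, adjusted p = 0.297). It rose with null-labelled library 1 alone (1.56, adjusted p = 0.0456) and with library 2 alone (2.40, adjusted p = 0.00433). Both calls were lost when every probe set was fitted without a filter (adjusted p = 0.634 and 0.0944). A second Cdkn1a probe set gave 1.58 and −0.11 in these libraries, so the rise in null-labelled library 2 rested on 1 probe set. Meis1, a homeobox partner of Hox proteins, read 10.91 and 10.89 in the null-labelled libraries and 11.69 and 11.61 in WT (difference −0.75, SE 0.16, adjusted p = 0.574), with −0.28 and −0.038 in its other probe sets. Il7r, the interleukin-7 receptor chain that Gfi1 represses in lymphoid cells, was named after its values were seen. It read 10.25 and 10.03 in the null-labelled libraries and 9.37 and 9.62 in WT (difference 0.65, SE 0.18, adjusted p = 0.644), but its second probe set gave 0.72 in null-labelled library 1 and −0.17 in library 2.

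Of the 16 factors reported at Gfi1 or Gfi1b enhancers, Lyl1 among them, all were tested and 0 passed. An unadjusted p under 0.05 was found for 3, against 6.84% of all genes. Lyl1, the targeted gene, counts among these 3 and among the negative differences. It also counts among the factors that fell in null-labelled library 2. The differences of 15 were negative (13 after quantile normalization), where 56.9% of all genes were, with a median of −0.21. By library the median was −0.14 in null-labelled library 1 and −0.41 in library 2. Gata2, a zinc-finger factor of stem and progenitor cells, read 9.54 and 9.77 in the null-labelled libraries and 10.48 and 10.47 in WT (difference −0.82, SE 0.17, adjusted p = 0.574), and its second probe set gave −0.58. Gata2 lay below WT without overlap, as did 24.0% of all genes tested, and a link to Gfi1 was not tested. In null-labelled library 2 alone, 5 of the 16 fell and 1 rose relative to WT, where 10.8% of all genes fell and 3.94% rose. In the target list 1 of 15 fell and 2 rose.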

How the data were processed

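Amplified RNA of sorted LMPPs, labelled with biotin, was read on 1 array per library. The deposited log2 values were made by the authors with RMA, per the submitters' processing notes, without a version. They were used unchanged. Platform annotation named 34945 of 45037 probe sets with 1 gene, 932 with several and 9160 with none; 34741 matched mouse RefSeq (GRCm38.p6) and 0 symbols changed. Each gene took its probe set with the highest mean. Genes whose mean reached the median of all probe sets (log2 5.69) were tested, 11196 of 18193. Differences are Lyl1-null minus WT, from limma 3.58.1 in R 4.3.3 (lmFit, eBayes, two-sided, Benjamini-Hochberg at 0.05), with moderated SE. A second fit took every probe set unfiltered. Fits with 1 library labelled Lyl1-null assume that it varies like the WT pair. The code was tested on simulated data.

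The members and lists were chosen with earlier results of these data known. Named list genes were those past the threshold, up to 4 a list, otherwise the 2 with the smallest unadjusted p besides the members, and the 2 markers a list with the largest difference. For Gfi1 and Gfi1b the 3 nearest genes by pattern were taken too, without RIKEN clones and predicted genes. Alternatives were the filter (none, 70th percentile), the probe-set rule, 2 scalings, trended or robust priors, array weights, a threshold of 0.10, a replicate block and each library left out.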

Additional observations from a re-analysis of the deposited data

How the results depend on the processing

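The Gfi1 and Gfi1b differences kept their sign and stayed outside the threshold under all 14 alternatives, Gfi1 between −0.88 and −0.48 (adjusted p from 0.0733 to 0.9999) and Gfi1b between 0.21 and 0.75 (adjusted p from 0.322 to 0.9999). Only the 2 scalings could have changed these signs. Both genes have 1 probe set, so the probe-set rule left the estimates as they were. The filter, priors, array weights and block left the estimates of every member as they were, and moved only the SE and p. Fits with a library left out cannot reverse groups that do not overlap. Gfi1b was at 0.21 without null-labelled library 1 and 0.75 without library 2. Gfi1 was at −0.48 without WT replicate 1 and at −0.88 without WT replicate 2. Kdm1a (−0.45 to −0.15), Rcor1 (−0.83 to −0.25) and Hdac2 (−0.33 to −0.16) kept their sign too. Hdac1 reversed with quantile normalization (0.025), without null-labelled library 2 (0.20) and without WT replicate 2 (0.049); it was −0.39 without null-labelled library 1. For quantile normalization the cause was not tested, and the others each drop 1 library. The count of members passed was 0 with all libraries and 0 to 1 with a library left out, the 1 being Rcor1 without null-labelled library 1. In an unfiltered fit of every probe set, chosen after seeing the data, 1 probe set passed with each null-labelled library alone and no member did. The count of all genes passed was 1, and it was 4 without a filter or with a trended prior, 0 with the mean of probe sets (limma, 736 at an unadjusted p under 0.05), 2 with every probe set, quantile normalization or median centring, 5 with array weights, 6 at the threshold of 0.10 and 1 to 1652 with a library left out. The cause of these moves was not tested.

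With the replicate number as a block, 3 genes passed and no member, and Gfi1 stood at an adjusted p of 0.908. The labels do not say that a number pairs libraries, and the differences between replicates 1 and 2 correlated at −0.41 between the groups. A crossed block, which joins unlike numbers and was chosen after seeing the data, gave 1 gene and 0 members. With 2 arrays per group, the 95% intervals of the members, such as −1.17 to −0.19 for Gfi1, are wide.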

Other observations

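The tested genes whose values over the 4 libraries lay closest to those of Gfi1, after each gene's own mean was subtracted, were Crispld1, Fam222b and Ankrd50, at Euclidean distances of 0.093, 0.115 and 0.118 log2 units. Crispld1, a secreted cysteine-rich protein, stood at 7.86 and 7.86 in the null-labelled libraries and at 8.77 and 8.45 in WT. Fam222b stood at 6.99 and 7.14 in the null-labelled libraries and at 7.98 and 7.54 in WT. Second probe sets above the filter did not follow: they differed by −0.19 for Crispld1 and −0.019 for Fam222b.

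Closest to Gfi1b were the tubulin gene Tuba8, the nuclear import receptor Tnpo2 and the protein kinase C gene Prkch, at distances of 0.105, 0.115 and 0.129. Tnpo2 stood at 8.68 and 8.27 in the null-labelled libraries and at 7.99 and 8.01 in WT, and a second probe set above the filter gave 0.57 and 0.53. Prkch stood at 9.77 and 9.39 in the null-labelled libraries and at 9.09 and 9.22 in WT. With 4 libraries many genes share such a pattern, and the likeness carries no test.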
